A study of Mus musculus with 9 samples.

Results

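The genes of the cell division cycle were examined as 48 members fixed by symbol, 19 of the DNA replication phase (S phase) and 29 of mitosis. Of these, 46 had an entry among the 37801 gene entries used, 17 of S phase and 29 of mitosis. Cdt1 and Gins2 were not analysed here. RNA of mouse lymph nodes, as the study's text has it, was sequenced in 9 libraries, 3 in each of 3 groups. The wild-type group (WT) was labelled wtMHCII and wtNRAS on the albino FVB/NJ strain. The study's text describes its wild-type controls in general as littermates without the transgene. The Tyr-NrasQ61K group carried NrasQ61K, an oncogenic form of the small GTPase Nras, under the tyrosinase promoter, which is active in melanocytes. It was labelled Cre-negative, wtMHCII and NRAS61K, on an FVB/NJ cross. The Tyr-NrasQ61K MHCII-KO group was labelled Cre-positive, MHCII-KO and NRAS61K on the same kind of cross. By these labels both transgenic groups carry NRAS61K and differ in Cre and in MHC class II. WT differs from both in the transgene and in the strain entry, FVB/NJ against an FVB/NJ cross, and these cannot be told apart. The design text calls the oncogene Cre inducible, whereas the protocol names a tyrosinase promoter, so whether the Cre-negative and Cre-positive groups also differ in its expression cannot be told from these sources. Neither gives the Cre driver, the cells that lose MHC class II, or the ages of the mice.

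Cells copy their DNA in S phase and divide in mitosis, and the genes that serve these steps are transcribed in waves. Genes for the replication helicase, the sliding clamp and the supply of deoxynucleotides are transcribed around the start of S phase under the E2F factors. Genes for the mitotic cyclins, the spindle and the kinetochore follow in G2 and mitosis under the DREAM and MuvB complexes, B-Myb and FOXM1. In a lymph node most dividing cells are lymphocytes, above all activated T cells and the B cells of germinal centers, so that the RNA of these genes in a whole node is an average over a few cycling and many resting cells. In such bulk RNA, a smaller share of cycling cells and less RNA of these genes per cell cannot be told apart. The levels are shares of a library, so they do not give the number of cycling cells in a node. The study's text reports that Tyr-NrasQ61K nodes were enlarged and held more nonmelanocyte cells, CD3+ T cells among them.

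The labels name nevus melanocytes as the source, but genes of lymphocytes were far above those of melanocytes. The summed FPKM (fragments mapped per length of transcript and per total of mapped fragments, a level that can be compared between genes) of 9 B cell genes was between 359.0 and 693.6 in the 9 libraries and that of 12 T cell genes between 174.4 and 423.8. The sum of 8 melanocyte genes lay between 3.89 and 5.67 in WT, between 12.7 and 17.4 in Tyr-NrasQ61K, and between 6.84 and 12.1 in the libraries labelled MHCII-KO. Tyrp1 and Slc45a2, which serve pigment synthesis, were listed at 0 in the 3 WT libraries. H2-Ab1, a class II gene, was at 108.2 to 270.9 FPKM in the libraries labelled MHCII-KO and at 148.9 to 276.4 in Tyr-NrasQ61K, so these data show no loss of its RNA, and the group is named here by its label. On the first principal component of all tested genes, replicate 2 of Tyr-NrasQ61K and replicate 2 of MHCII-KO lay at one end (scores of 102 and 78.6) and WT replicates 1 and 3 at the other (-74.1 and -73.4), with the other libraries between -30.9 and 21.8. WT replicate 2 was at -20.4 on the first component, so that replicate 2 scored highest within each group. On the second component, replicate 3 of Tyr-NrasQ61K lay at -100 and the rest between -12.9 and 35. Nothing in the labels says that replicates are separate animals, and the p-values below measure the spread between these libraries.

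The sequence in front of the genes was read as a description. The E2F and CHR motifs searched are those of the factors named above for each phase. A high share among the members was therefore to be awaited and is no separate evidence. Promoters of RefSeq genes, 250 bases before to 50 bases after the transcription start in GRCm38.p6, were matched for 15 S phase and 23 mitosis members that had an entry. Both strands were searched for the cell cycle homology region CHR (TTTGAA), which MuvB complexes bind, for the CCAAT box (CCAAT), which the factor NF-Y binds, and for E2F elements in 4 forms, the first being TTCCCGC, the next TTCGCGC, another one TTGCCGC and the last TTGGCGC. A gene was counted if any of its promoters held a match. The CHR letters were found in 17 of 23 mitosis members (73.9%), in 1 of 15 S phase members, Mcm2, and in 20.2% of all 27025 genes with a promoter (17.9% of 32851 promoters). An E2F element was found in 9 of 15 S phase members (60.0%), 4 of 23 mitosis members (17.4%) and 10.9% of all genes (9.57% of promoters). The CCAAT box was found in 10 S phase members, 19 mitosis members and 41.1% of all genes (37.4% of promoters). CHR and CCAAT lay together in 1 promoter in 16 of 23 mitosis members. They did so in 6.95% of all promoters, a share per promoter and not per gene. A match is a run of letters and not a shown binding site. Only the letters given were searched, so a motif form that differs from them was not counted.

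**Figure D1:**
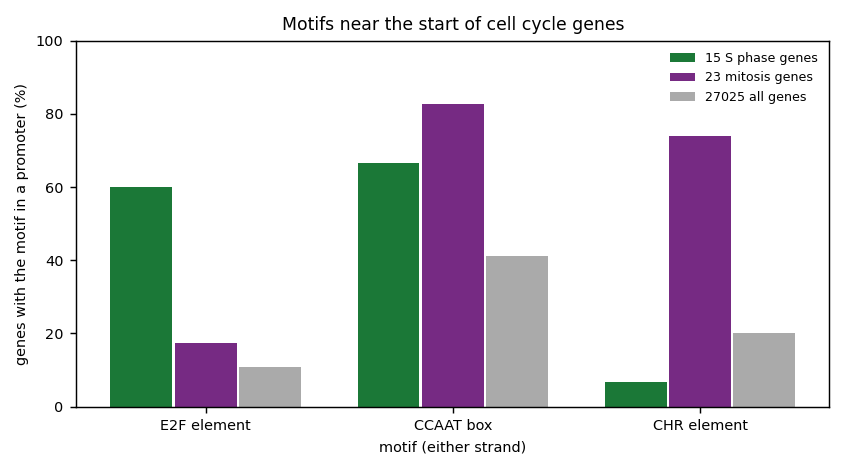
Share of genes (percent, vertical axis) with an E2F element, a CCAAT box or a CHR element on either strand in a promoter window, for 15 S phase members, 23 mitosis members and all 27025 genes with a promoter (grey; 10.9%, 41.1% and 20.2%). The CHR element was found in 73.9% of the mitosis members and the E2F element in 60.0% of the S phase members.

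The 150 bases before the transcription start are printed for 7 members whose levels are described further on, so that the motif arrangement of each phase can be seen, with motif matches in capitals and each sequence on the strand of its gene. The stretch of Pcna lies at chr2:132253181-132253330, minus strand, that of Mcm5 at chr8:75109359-75109508, plus strand, Mcm6 at chr1:128359706-128359855, minus strand and Tk1 at chr11:117826015-117826164, minus strand. That of Ccnb1 lies at chr13:100786487-100786636, minus strand, Ccnb2 at chr9:70421555-70421704, minus strand and Cdk1 at chr10:69352913-69353062, minus strand. ATTGG is CCAAT on the other strand, and GCGCCAA and GCGCGAA are E2F elements on the other strand. In Mcm6, 2 E2F matches on opposite strands overlap at each of 2 places, and in Ccnb1 an E2F match overlaps a CCAAT box. Cdk1 holds CHR, CCAAT and E2F matches, whereas Tk1 holds none of the letters searched in this window. The CHR matches of Ccnb2 lie at bases -167 to -162 and 4 to 9 from the start, outside the stretch shown.
Pcna: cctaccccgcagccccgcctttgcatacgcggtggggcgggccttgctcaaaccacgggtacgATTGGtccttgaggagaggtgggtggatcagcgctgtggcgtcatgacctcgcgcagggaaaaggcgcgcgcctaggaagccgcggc
Mcm5: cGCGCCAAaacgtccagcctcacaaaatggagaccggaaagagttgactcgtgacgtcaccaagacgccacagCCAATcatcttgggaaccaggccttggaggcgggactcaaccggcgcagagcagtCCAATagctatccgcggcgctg
Mcm6: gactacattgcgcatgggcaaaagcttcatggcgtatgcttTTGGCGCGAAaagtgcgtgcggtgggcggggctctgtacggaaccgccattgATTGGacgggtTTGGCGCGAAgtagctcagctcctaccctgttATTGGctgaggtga
Ccnb1: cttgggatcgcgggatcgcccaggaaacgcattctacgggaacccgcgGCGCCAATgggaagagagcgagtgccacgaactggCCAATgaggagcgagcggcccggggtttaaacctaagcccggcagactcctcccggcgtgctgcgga
Ccnb2: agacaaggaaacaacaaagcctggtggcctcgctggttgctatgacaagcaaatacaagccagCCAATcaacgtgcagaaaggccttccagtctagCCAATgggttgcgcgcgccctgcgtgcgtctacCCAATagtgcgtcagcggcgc
Cdk1: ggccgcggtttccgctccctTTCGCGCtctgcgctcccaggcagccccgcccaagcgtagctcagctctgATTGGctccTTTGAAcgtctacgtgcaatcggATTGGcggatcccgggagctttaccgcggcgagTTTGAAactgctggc
Tk1: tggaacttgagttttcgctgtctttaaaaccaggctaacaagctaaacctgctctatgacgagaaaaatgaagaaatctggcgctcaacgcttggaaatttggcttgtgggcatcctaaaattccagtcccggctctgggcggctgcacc

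Levels of the members were low to moderate. Mean FPKM over the 9 libraries ran from 0.903 (Cdc6) to 30.6 (Pcna) in S phase and from 0.438 (Ttk) to 13.6 (Top2a) in mitosis. The sum of the S phase members was 186.7, 114.1 and 191.5 FPKM in WT, 113.8, 124.5 and 135.9 in Tyr-NrasQ61K, and 110.2, 100.9 and 114.3 in MHCII-KO. WT replicates 1 and 3 were thus far above the other 7 libraries, and WT replicate 2 was among the latter. The sum of the mitosis members was 145.9, 72.3 and 127.4 FPKM in WT, 83.2, 114.7 and 105.0 in Tyr-NrasQ61K, and 72.4, 69.3 and 72.4 in MHCII-KO. Here all 3 Tyr-NrasQ61K libraries were above all 3 MHCII-KO libraries, and WT replicate 2 was within the range of the latter. The ratio of mitosis to S phase sums was 0.781, 0.634 and 0.665 in WT, 0.732, 0.921 and 0.773 in Tyr-NrasQ61K and 0.657, 0.687 and 0.634 in MHCII-KO, so that the 2 transgenic groups did not overlap in this ratio. These sums are descriptions over genes that share libraries and were given no test. They are of FPKM as deposited. The factors by which median-ratio scaling divides a library were 1.23, 0.944 and 1.23 in WT. They were 0.967, 0.799 and 1.23 in Tyr-NrasQ61K and 0.982, 0.804 and 0.983 in MHCII-KO. The orders of the sums need not hold after such scaling, which was not examined, whereas the ratio is not changed by it.

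**Figure D2:**
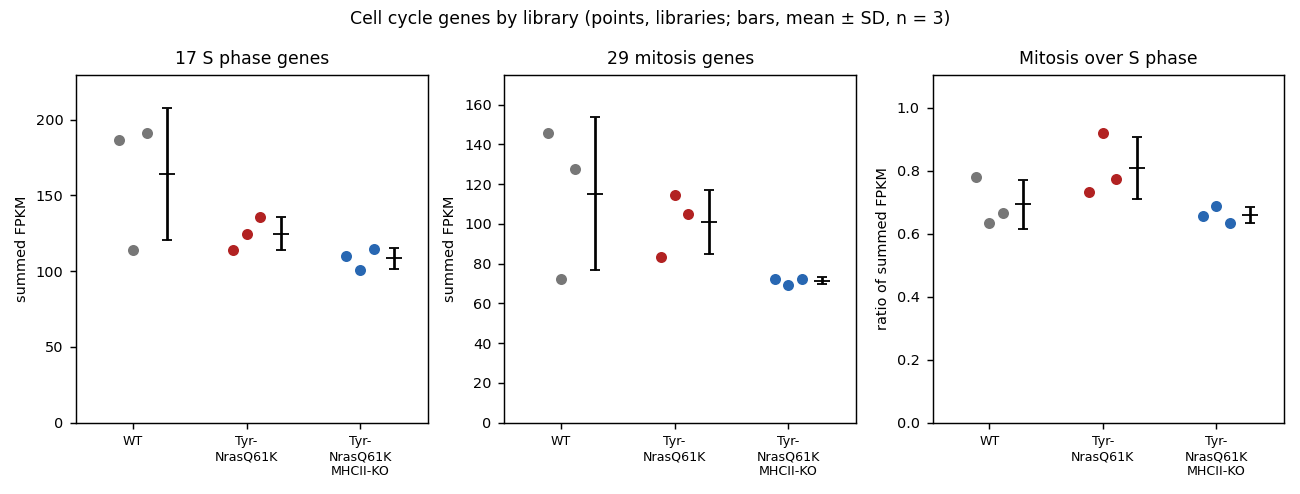
Summed FPKM of the 17 S phase members (left) and 29 mitosis members (middle) and the ratio of the sums (right) in each library, with group means ± SD (n = 3). The S phase means were 164.1 ± 43.4, 124.7 ± 11.1 and 108.5 ± 6.87 in WT, Tyr-NrasQ61K and MHCII-KO, and the mitosis means 115.2 ± 38.3, 101.0 ± 16.1 and 71.4 ± 1.81.

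For most members the WT libraries were the most spread out of the 3 groups. WT replicate 2 was the lowest WT library for 15 of 17 tested S phase members and 26 of 27 tested mitosis members, against 68.1% of all genes tested. The SD of log2(FPKM + 1) was largest in WT for 10 S phase and 18 mitosis members, whereas over all genes tested it was largest in WT for 24.4% and in Tyr-NrasQ61K for 61.0%. WT replicate 1 held the highest value of the 9 libraries for 16 of 29 mitosis members, and MHCII-KO replicate 2 the lowest value for 9 S phase and 11 mitosis members.

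**Figure D3:**
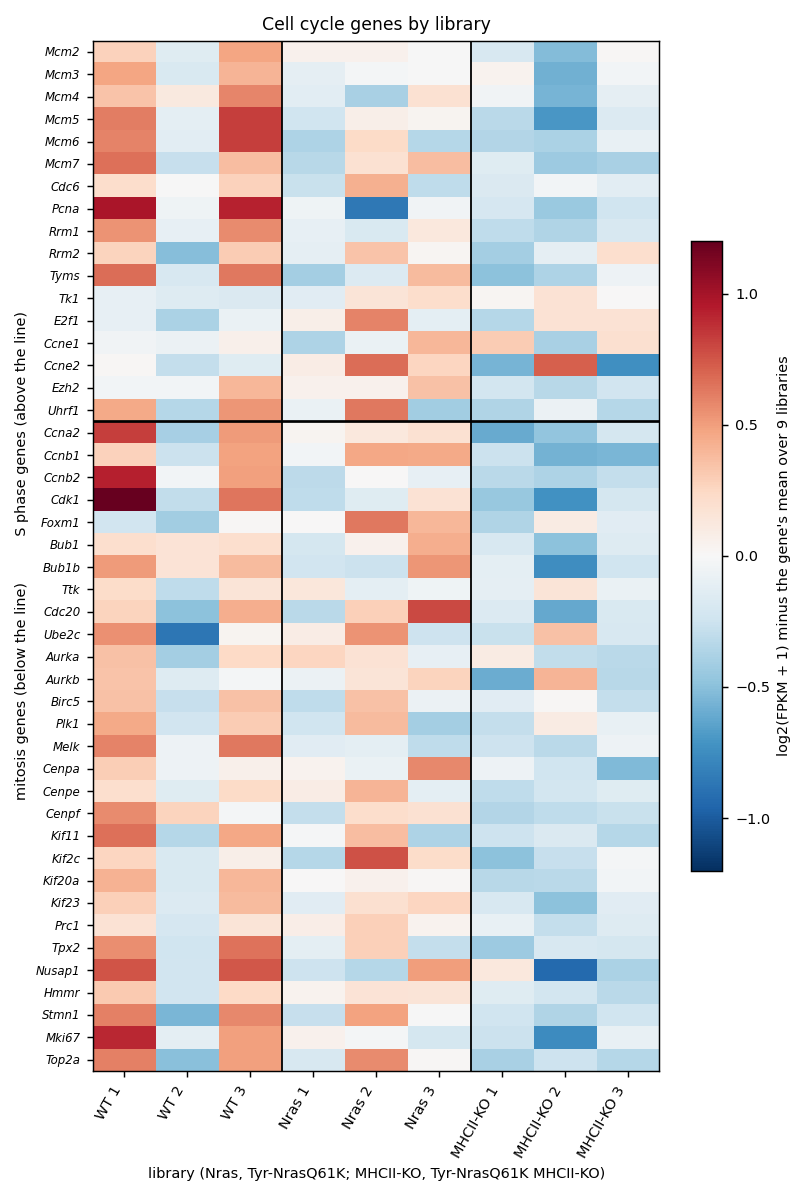
Each row is 1 of the 46 members and each column 1 library, with log2(FPKM + 1) minus the mean of the gene over 9 libraries as color (red above, blue below; S phase above the horizontal line, mitosis below it). WT replicates 1 and 3 are red in most rows, WT replicate 2 and the 3 MHCII-KO libraries mostly blue, and the Tyr-NrasQ61K libraries mixed.

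Among the S phase members, the MCM2-7 genes encode the 6 subunits of the replicative helicase, and their mean levels ran from 4.70 to 11.6 FPKM. Mcm2 was at 5.80, 4.07 and 6.78 FPKM in WT, 4.81, 4.83 and 4.60 in Tyr-NrasQ61K and 3.89, 2.91 and 4.65 in MHCII-KO. The groups overlapped, with WT replicate 2 below the Tyr-NrasQ61K libraries. Mcm5 was at 10.7, 6.06 and 12.6 FPKM in WT, 5.47, 7.02 and 6.84 in Tyr-NrasQ61K and 5.10, 3.72 and 5.84 in MHCII-KO, where each MHCII-KO library was below each WT library. Mcm6 was at 17.2, 10.004 and 20.4 FPKM in WT, 8.28, 13.1 and 8.50 in Tyr-NrasQ61K and 8.40, 8.27 and 10.3 in MHCII-KO. Replicates 1 and 3 of WT were the highest for Mcm6, and replicate 2 of WT was below 1 library of each other group. Mcm4 was at 9.003, 7.58 and 10.9 FPKM in WT, 6.24, 5.05 and 7.97 in Tyr-NrasQ61K and 6.68, 4.36 and 6.36 in MHCII-KO, again with no overlap between WT and MHCII-KO. Mcm7 was at 18.2, 8.99 and 14.7 FPKM in WT, 8.62, 12.7 and 14.7 in Tyr-NrasQ61K and 9.96, 7.96 and 8.23 in MHCII-KO. The Mcm7 groups overlapped in each comparison, and its exons share bases with Ap4m1 and Cops6 on the opposite strand, so its level is less certain.

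Pcna encodes the sliding clamp that holds DNA polymerase on its template and was the most abundant member. It was at 56.3, 27.0 and 54.1 FPKM in WT, 27.2, 15.1 and 27.2 in Tyr-NrasQ61K and 24.3, 20.3 and 23.6 in MHCII-KO. WT replicates 1 and 3 were about level with each other and far above the rest, and WT replicate 2 was close to Tyr-NrasQ61K replicates 1 and 3. Rrm1, the large subunit of ribonucleotide reductase, was at 9.18, 5.56 and 9.36 FPKM in WT, 5.54, 5.18 and 6.66 in Tyr-NrasQ61K and 4.68, 4.45 and 5.15 in MHCII-KO. The 3 MHCII-KO libraries were the 3 lowest for Rrm1. Tk1, the thymidine kinase of cycling cells, had a different order, at 14.8, 14.3 and 14.03 FPKM in WT, 14.4, 17.9 and 18.6 in Tyr-NrasQ61K and 16.2, 18.1 and 16.0 in MHCII-KO. Each MHCII-KO library was above each WT library for Tk1, 1 of 44 members tested, beside 1322 of all 16587 genes tested. Its exons share bases with Afmid.

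The regulators of S phase entry had other orders of the groups. Ccne1, 1 of the 2 cyclins E that activate Cdk2, was at 3.51, 3.44 and 3.86 FPKM in WT, 2.61, 3.41 and 5.13 in Tyr-NrasQ61K and 4.74, 2.55 and 4.32 in MHCII-KO, with WT inside the range of both other groups. Ccne2, the other cyclin E, was at 1.86, 1.32 and 1.56 FPKM in WT, 2.02, 3.52 and 2.40 in Tyr-NrasQ61K and 0.926, 3.67 and 0.702 in MHCII-KO. The 3 Tyr-NrasQ61K libraries were above the 3 WT libraries for Ccne2, 1 of 44 members tested, beside 1356 of all 16587 genes tested. MHCII-KO replicate 2 was far from replicates 1 and 3 for Ccne2. Its exons share 609 bases with Ints8 on the opposite strand, so its level is less certain too. E2f1, a transcription factor of this step, was between 0.817 and 2.58 FPKM in all libraries. Ezh2, the histone methyltransferase of Polycomb complex PRC2, was at 8.16, 8.17 and 11.3 FPKM in WT, 8.71, 8.67 and 10.9 in Tyr-NrasQ61K and 7.02, 6.44 and 6.98 in MHCII-KO. Its 3 MHCII-KO libraries were below all 6 others, and WT and Tyr-NrasQ61K overlapped.

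Among the mitosis members, Cdk1 and its partners cyclin B1 and B2 drive entry into mitosis. Cdk1 was at 11.0, 2.94 and 6.57 FPKM in WT, 2.91, 3.38 and 4.46 in Tyr-NrasQ61K and 2.53, 1.93 and 3.19 in MHCII-KO. WT replicates 1 and 3 were above all others for Cdk1, and WT replicate 2 was within the range of both transgenic groups. Ccnb2 was at 5.40, 2.29 and 3.73 FPKM in WT, 1.69, 2.37 and 2.13 in Tyr-NrasQ61K and 1.69, 1.60 and 1.75 in MHCII-KO. The WT libraries were above the MHCII-KO libraries, and Tyr-NrasQ61K overlapped both. Ccnb1 had another order, at 3.83, 2.32 and 4.55 FPKM in WT, 2.89, 4.49 and 4.45 in Tyr-NrasQ61K and 2.34, 1.68 and 1.71 in MHCII-KO, where each MHCII-KO library was below each Tyr-NrasQ61K library. Foxm1, a transcription factor of the mitotic genes, was at 1.72, 1.38 and 2.21 FPKM in WT, 2.19, 3.96 and 3.20 in Tyr-NrasQ61K and 1.49, 2.42 and 1.90 in MHCII-KO. Tyr-NrasQ61K replicates 2 and 3 were the highest for Foxm1, and replicate 1 was just within the range of WT. Exons of Foxm1 share bases with Tex52 on the same strand.

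Genes of the kinetochore, spindle and chromosomes completed the list. Cenpa, the histone H3 variant of centromeres, was at 8.98, 6.82 and 7.48 FPKM in WT, 7.36, 6.73 and 11.1 in Tyr-NrasQ61K and 6.82, 5.90 and 4.65 in MHCII-KO. Its MHCII-KO libraries were all below WT, with the closest pair at 6.817 and 6.821 FPKM. Cenpf, an outer kinetochore protein, was at 2.12, 1.54 and 1.08 FPKM in WT, 0.733, 1.45 and 1.39 in Tyr-NrasQ61K and 0.659, 0.708 and 0.755 in MHCII-KO, with no overlap between WT and MHCII-KO. Stmn1, a microtubule-destabilizing protein, was at 12.3, 4.94 and 11.9 FPKM in WT, 6.19, 11.1 and 7.64 in Tyr-NrasQ61K and 6.39, 5.77 and 6.36 in MHCII-KO, and WT replicate 2 was the lowest library. Mki67, which encodes the proliferation marker Ki-67, was at 11.8, 5.35 and 8.66 FPKM in WT, 6.14, 5.78 and 4.93 in Tyr-NrasQ61K and 4.74, 3.07 and 5.48 in MHCII-KO. WT replicates 1 and 3 were the 2 highest libraries for Mki67, and the transgenic groups overlapped. Top2a, the topoisomerase that untangles chromosomes, was at 20.3, 8.92 and 18.7 FPKM in WT, 11.3, 19.8 and 13.1 in Tyr-NrasQ61K and 9.69, 10.8 and 10.04 in MHCII-KO. The 3 Tyr-NrasQ61K libraries were above the 3 MHCII-KO libraries for Top2a, while WT replicate 2 was below them all.

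**Figure D4:**
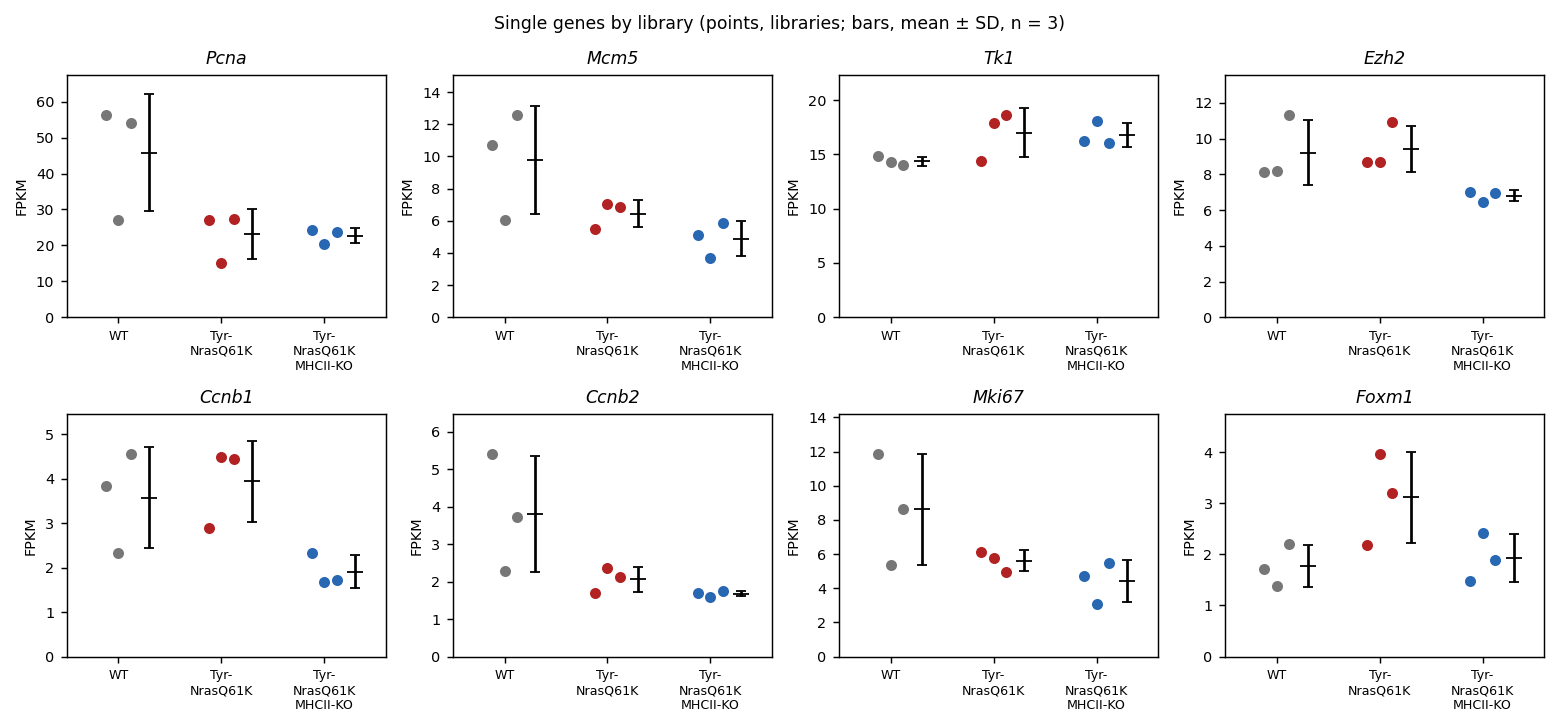
FPKM (vertical axis) of 4 S phase genes (top) and 4 mitosis genes (bottom) in each of the 9 libraries, with group means ± SD (n = 3). Pcna and Ccnb2 were highest in WT replicates 1 and 3, Tk1 was at 14.03 to 18.6 in all libraries, and Ezh2 and Ccnb1 were lower in each MHCII-KO library than in each Tyr-NrasQ61K library.

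In the comparison of Tyr-NrasQ61K with WT, which differ by the labels in the transgene and in the strain entry, none of the 44 members tested passed an adjusted p of 0.05 in limma, against 0.235% of all 16587 genes tested. Ttk and Melk were under the filter on low values. At an unadjusted p under 0.05, 1 S phase and 1 mitosis member were lower (8.43% of all genes) and 1 mitosis member was higher (6.79% of all genes). Those lower were Pcna, with a log2 fold change of FPKM + 1 of -0.93 (SE 0.35, 95% interval -1.73 to -0.13, limma adjusted p = 0.316), and Ccnb2, with -0.60 (SE 0.24, limma adjusted p = 0.318). The higher one was Foxm1, at 0.56 (SE 0.22, interval 0.05 to 1.06, limma adjusted p = 0.318). The next S phase genes by p were Mcm6 at -0.59 (SE 0.29) and Mcm4 at -0.46 (SE 0.23), and the next mitosis gene was Cdk1 at -0.65 (SE 0.38), with limma adjusted p of 0.343, 0.350 and 0.387. The median log2 fold change was -0.18 over the S phase members and -0.10 over the mitosis members, beside -0.12 over all genes tested, and 11 of 17 and 16 of 27 members were below 0, beside 59.1% of all genes. Of the tested members, 0 had all Tyr-NrasQ61K libraries below all WT libraries, beside 10.5% of all genes tested. Scaling the libraries by median ratios moved the median of all genes from -0.12 to 0.03, and the medians of both phases then had the opposite sign, 0.0061 for S phase and 0.04 for mitosis. Without WT replicates 1 and 3, so that WT was replicate 2 alone, they were 0.14 and 0.28 beside 0.07 over all genes, with 4 of 17 and 4 of 27 members below 0, and Cdk1 was at 0.20.

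For the libraries labelled MHCII-KO against WT, 0 of 44 members passed the adjusted p in limma, against 0.145% of all genes. At an unadjusted p under 0.05, 5 of 17 S phase and 8 of 27 mitosis members were lower (11.5% of all genes) and 0 were higher. The S phase genes of smallest p were Mcm5 at -0.84 (SE 0.27, interval -1.46 to -0.21), Rrm1 at -0.62 (SE 0.22) and Pcna at -0.91 (SE 0.35), each with a limma adjusted p of 0.329. The mitosis genes were Ccnb2 at -0.79 (SE 0.24, limma adjusted p = 0.325), Mki67 at -0.79 (SE 0.29) and Cenpf at -0.58 (SE 0.21), the latter pair with a limma adjusted p of 0.329. The medians were -0.44 in both phases beside -0.22 over all genes, and 14 of 17 S phase and 25 of 27 mitosis members were below 0 beside 67.5% of all genes. The 6 helicase genes were all below 0, with a median of -0.58, and so were the 9 genes of kinesins, spindle and microtubules, with a median of -0.44. The 3 genes of cyclin E and E2F1 had a median of 0.05. In 6 S phase and 6 mitosis members, the MHCII-KO libraries did not overlap WT and were lower, together 12 of 44, beside 23.4% of all genes tested. With median-ratio scaling the median of all genes was 0.02, that of S phase -0.20 and that of mitosis -0.24, so that the distance of the 2 phases from all genes was kept while their fold changes were smaller. Without WT replicates 1 and 3 the medians were -0.09 for S phase and -0.04 for mitosis beside -0.03 over all genes, with 11 of 17 and 17 of 27 members below 0, so that both phases were then close to all genes.

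The libraries labelled MHCII-KO against Tyr-NrasQ61K, the comparison of MHC class II knockout with intact by the labels, also called 0 of 44 members in limma, against 0.0482% of all genes. At an unadjusted p under 0.05, 1 mitosis member, Ccnb1, was lower (1.28% of all genes) and 0 were higher. Ccnb1 had a log2 fold change of -0.75 (SE 0.24, interval -1.30 to -0.20), and its adjusted p in limma was 0.99994, as for all other members. The mitosis genes of next smallest p were Foxm1 at -0.48 (SE 0.22, interval -0.98 to 0.03) and Cenpa at -0.45 (SE 0.23, interval -0.98 to 0.07). The S phase genes were Ezh2 at -0.41 (SE 0.19, interval -0.84 to 0.02), Ccne2 at -0.53 (SE 0.37) and Mcm7 at -0.40 (SE 0.29). All 27 tested mitosis members were below 0, with a median of -0.35, and 15 of 17 S phase members, with a median of -0.19, beside 68.0% of all genes and a median of -0.08. With weights for the libraries the S phase median was -0.0062 with 9 of 17 members below 0, about level with the -0.01 of all genes, and the mitosis median was -0.13 with 23 of 27 below 0. Under quantile normalization 11 of 17 S phase members were below 0, with a median of -0.10, and 26 of 27 mitosis members, with -0.25, beside 0.04 over all genes. By role, the median was -0.48 for the 5 genes of mitotic cyclins, Cdk1 and Foxm1, and -0.38 for the 2 of chromosomes. It was -0.37 for the 4 tested genes of the spindle checkpoint and anaphase-promoting complex, and -0.35 for the 3 kinetochore genes. The 9 genes of kinesins, spindle and microtubules had -0.34, and the 4 tested mitotic kinases and survivin -0.21. In the S phase, the 2 chromatin genes had -0.36, the 6 helicase genes -0.21 and the 4 of deoxynucleotide synthesis -0.21. The 3 genes of cyclin E and E2F1 had -0.18, and Cdc6 and Pcna a median of -0.02. The MHCII-KO libraries lay below Tyr-NrasQ61K without overlap for 8 mitosis genes (Ccna2, Ccnb1, Cenpe, Kif20a, Kif23, Prc1, Hmmr and Top2a) and 2 S phase genes (Rrm1 and Ezh2), 10 of 44 beside 3.07% of all genes tested. Of these 10 genes, Ccna2, Kif20a and Prc1 share exon bases with a protein-coding gene on the opposite strand, Ezh2 with the noncoding Gm26625 on the opposite strand (174 bases), and Top2a with the small RNA Gm23451 on its own strand (122 bases). The non-overlap of these 10 genes and of all genes was read on FPKM as deposited. The factors by which median-ratio scaling divides a library were 0.967, 0.799 and 1.23 in Tyr-NrasQ61K. In MHCII-KO they were 0.982, 0.804 and 0.983. These orders need not hold after such scaling, which was not examined. The difference between the 2 phases was not tested. Without Tyr-NrasQ61K replicate 2, 24 of 27 mitosis members were below 0 with a median of -0.26 beside -0.21 over all genes, and without replicate 2 of both groups 26 of 27 were, with -0.22 beside -0.13. In the S phase the median without replicate 2 of both groups was -0.11, beside the same -0.13. Without Tyr-NrasQ61K replicate 3, 27 of 27 mitosis and 13 of 17 S phase members were below 0, with medians of -0.33 and -0.20 beside 0.06 over all genes.

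**Figure D5:**
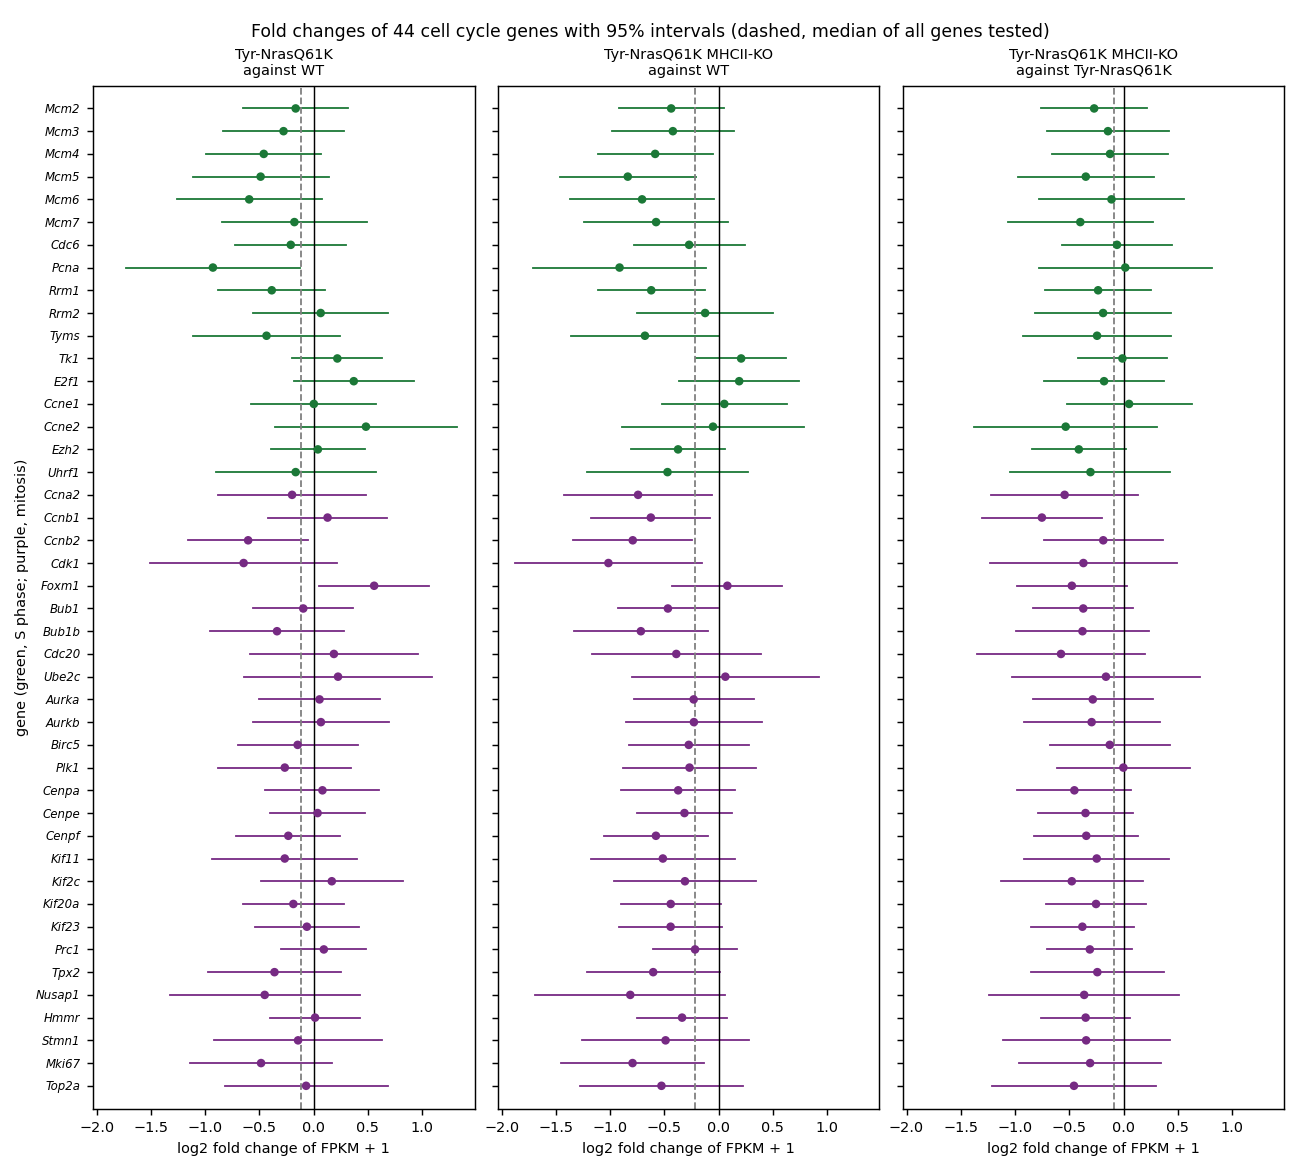
Log2 fold change of FPKM + 1 (horizontal axis, points) with 95% intervals (lines) for the 44 tested members, S phase in green and mitosis in purple, in 3 comparisons on 1 scale, with the median of all genes tested dashed (-0.12, -0.22 and -0.08). In the right panel the 27 mitosis members lie below 0, and the interval of 1 gene, Ccnb1, excludes 0.

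Both transgenic groups together against WT gave 0 called members in limma, against 0.398% of all genes. At an unadjusted p under 0.05, 5 S phase and 3 mitosis members were lower (15.2% of all genes). The smallest limma adjusted p was 0.183, for Ccnb2 at -0.70 (SE 0.21), followed in mitosis by Mki67 at -0.64 (SE 0.25) and Cdk1 at -0.83 (SE 0.33). In the S phase they were Pcna at -0.92 (SE 0.30, limma adjusted p = 0.195), Mcm5 at -0.66 (SE 0.24) and Rrm1 at -0.50 (SE 0.19). The medians were -0.32 for S phase and -0.27 for mitosis, beside -0.16 over all genes. Without WT replicates 1 and 3 they were 0.05 and 0.14, beside 0.02. This comparison and both comparisons with WT share the 3 WT libraries, so that they are not independent of one another. A fit that weights each library by its own spread called 10 S phase and 12 mitosis members in Tyr-NrasQ61K, 12 and 23 in MHCII-KO, and 11 and 19 in both groups against WT, where 30.6%, 44.7% and 45.5% of all genes were called, and 0 between the transgenic groups.

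Other genes of the same processes were read from lists of their own. Of 55 further replication genes, among them the polymerases, origin proteins and clamp loaders, 52 were tested and 0 passed the adjusted p in limma in any comparison. At an unadjusted p under 0.05, 2 were lower in Tyr-NrasQ61K against WT, 7 in MHCII-KO against WT and 1 in MHCII-KO against Tyr-NrasQ61K, beside 8.43%, 11.5% and 1.28% of all genes, with medians of -0.15, -0.32 and -0.19. In MHCII-KO against WT they ran from -1.46 to 0.17, and the S phase members from -0.91 to 0.21. Of 56 further mitosis genes, 46 were tested and 0 passed, with 4, 8 and 0 lower at an unadjusted p under 0.05 and medians of -0.18, -0.39 and -0.18. They ran from -1.58 to 0.78 in Tyr-NrasQ61K against WT, where the mitosis members ran from -0.65 to 0.56. In MHCII-KO against Tyr-NrasQ61K, 39 of the 46 were below 0, and their median of -0.18 was nearer to that of all genes (-0.08) than the -0.35 of the mitosis members. The genes of smallest p in these lists are named after their values were seen. Cks2, a small protein that binds Cdk1, was at 7.77, 5.19 and 9.90 FPKM in WT, 2.30, 0.732 and 2.88 in Tyr-NrasQ61K and 3.31, 1.78 and 1.90 in MHCII-KO, with every transgenic library below every WT library. Its log2 fold change was -1.58 and -1.36 against WT (limma adjusted p = 0.160 and 0.260). Smc2, a condensin subunit, was at -1.11 in MHCII-KO against WT (limma adjusted p = 0.241), and Rpa3, a subunit of the single-strand DNA-binding complex RPA, at -1.46 (limma adjusted p = 0.280). Cdc25b, a phosphatase that activates Cdk1, was the 1 gene of these lists that was higher at an unadjusted p under 0.05, in both transgenic groups against WT. It was at 6.89, 6.37 and 5.94 FPKM in WT, 7.26, 18.6 and 11.7 in Tyr-NrasQ61K and 11.0, 12.6 and 12.5 in MHCII-KO. Each library of both transgenic groups was above each WT library, and the limma adjusted p was 0.316 and 0.329.

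Marker genes of lymph node cell types also differed between these libraries. The sum of the 12 T cell genes lay between 248.3 and 392.0 FPKM in WT, between 179.4 and 423.8 in Tyr-NrasQ61K, and between 174.4 and 288.5 in MHCII-KO, and 10 of 12 were below 0 in either comparison with WT. Those above 0 were Cd4, at 1.08 and 0.83, and Cd3e, at 0.27 and 0.30. Cd4 was at 59.0, 30.4 and 59.7 FPKM in WT and 105.7, 56.0 and 175.8 in Tyr-NrasQ61K. In MHCII-KO it was at 91.4, 63.8 and 105.3, so that Cd4 weighed heavily in the sums of both transgenic groups. The sum of the 9 B cell genes was 551.5 to 687.6, 359.0 to 693.6 and 376.4 to 543.9, with 5 of 9 and 7 of 9 below 0. For the 5 germinal center B cell genes with an entry it was 8.21 to 15.0, 11.7 to 24.4 and 9.75 to 10.8, and Tyr-NrasQ61K replicate 2, which had the highest mitosis to S phase ratio, held the value of 24.4. The 4 tested of these genes were all below 0 in MHCII-KO against Tyr-NrasQ61K, and Rgs13 was listed at 0 in 1 MHCII-KO library. The sum of 7 adipocyte genes lay between 248.9 and 414.6 in WT, between 52.7 and 198.4 in Tyr-NrasQ61K, and between 70.7 and 153.6 in MHCII-KO, with 7 of 7 below 0 in both comparisons with WT. The sum of 7 genes of stroma and vessels was 388.8, 185.5 and 367.1 FPKM in WT, against 160.8 to 199.7 for Tyr-NrasQ61K and 160.9 to 190.4 for MHCII-KO, with 5 of 7 below 0 in both comparisons with WT. As for the S phase members, WT replicates 1 and 3 were far above the other 7 libraries and WT replicate 2 was among these. Of this list, Ccl19 and Ccl21a, chemokines of the stroma of the T cell zone, had log2 fold changes of -0.996 and -0.94 in Tyr-NrasQ61K and -1.04 and -0.92 in MHCII-KO. The 7 genes ran from -0.996 to 1.24 in Tyr-NrasQ61K and from -1.04 to 1.21 in MHCII-KO, with 2 of 7 above 0 in each. The sum of the 8 macrophage genes overlapped, at 613.8 to 1361, 546.0 to 1425 and 675.5 to 1286, with 3 of 7 tested below 0 in both comparisons. Marco, a scavenger receptor of macrophages, was at 129.7, 51.8 and 141.8 FPKM in WT, against 19.6 to 24.2 for Tyr-NrasQ61K and 13.9 to 40.03 for MHCII-KO (log2 fold changes of -2.10 and -2.01 against WT, limma adjusted p = 0.163 and 0.225). WT replicates 1 and 3 were again highest for Marco, and WT replicate 2 was above all transgenic libraries. Of the 4 macrophage genes above 0, Siglec1 was at 2.17 and 2.18, and was listed at 0 in WT replicates 2 and 3. Mertk was at 0.67 and 0.62, Cd68 at 0.42 and 0.32 and Lyz2 at 0.09 and 0.10. Lyz2 alone was at 467.8 to 1269 FPKM in the 9 libraries, so that it weighed heavily in the sum. The sums of 7 plasma cell genes and of 4 red cell genes with an entry overlapped between the groups. Per 100 FPKM of T and B cell genes, Cd4 included, the members summed to 32.3, 23.3 and 30.5 in WT, 26.4, 44.4 and 21.6 in Tyr-NrasQ61K and 21.9, 30.9 and 26.7 in MHCII-KO, and on this scale the 3 groups overlapped. The part of these cell types in the values of the cycle genes was not tested.

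Members that carried the motif of their phase and members that did not had close fold changes in mitosis. The 16 tested mitosis members with a CHR element had a median log2 fold change of -0.42 in MHCII-KO against WT and -0.35 in MHCII-KO against Tyr-NrasQ61K, and the 5 without one had -0.47 and -0.36. In the S phase, the 9 members with an E2F element had medians of -0.47 and -0.23, and the 6 without one had -0.19 and -0.10. Both sets are small and were given no test, and motif forms other than the letters searched count here as absent.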

How the data were processed

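RNA was sequenced from 9 mouse libraries on a single flow cell, as the labels have it. The FPKM values were deposited by the authors as 1 matrix, and the submitters' processing notes name TopHat, Cufflinks, Cuffdiff and the build mm10. Their versions, the annotation, the strand setting and the read filters are not given in these sources, and the number of reads per library is unknown, since low FPKM values gave no clear step in several libraries. The authors also deposited Cuffdiff comparisons, with fold changes and p-values, which were not used. Of 37819 entries, 18 had more than 1 value for a library and were dropped. Columns matched to no sample numbered 0.

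Genes that reached an FPKM of 1 in 3 or more of the 9 libraries were tested, 16587 of them, on the scale log2(FPKM + 1), which understates fold changes of low genes. limma 3.58.1 in R 4.3.3 was fitted with 1 mean per group and a variance trend, and p-values were adjusted by the Benjamini-Hochberg method over all genes tested, with a threshold of 0.05. The procedure was tested on simulated data. Tables and plots used Python 3.11.15, pandas 2.3.3 and matplotlib 3.10.9. Promoters came from RefSeq (GRCm38.p6), and exon overlaps and gene types from GENCODE M21.

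Values in every library are given for Mki67, Top2a, Pcna, Mcm2, Cdk1, Ccnb1 and Ccne1, for the 3 members of each phase with the smallest p in each comparison, and for the 3 of each phase with the highest mean. Members, lists, motifs and this rule were chosen with earlier results of these data known. Alternatives were another pseudocount of 0.1, other filters, quantile and median-ratio scaling, weights for the libraries, a replicate block, each library left out, replicate 2 of both transgenic groups left out together, and protein-coding genes only. Leaving out WT replicates 1 and 3 together was added after the data were seen.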

Additional observations from a re-analysis of the deposited data

How the results depend on the processing

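With each library left out, without replicate 2 of both transgenic groups, without WT replicates 1 and 3, and under another pseudocount, other filters on low values, quantile or median-ratio scaling or protein-coding genes only, 0 members passed the adjusted p in limma in each comparison. With weights for the libraries, 10 S phase and 12 mitosis members passed in Tyr-NrasQ61K against WT, 12 and 23 in MHCII-KO against WT, and 11 and 19 in both groups against WT, where 30.6%, 44.7% and 45.5% of all genes passed. The weights ran from 0.197 for Tyr-NrasQ61K replicate 2 to 5.22 for MHCII-KO replicate 3, and the medians in Tyr-NrasQ61K against WT became -0.50 for S phase and -0.52 for mitosis, with -0.51 for mitosis in both groups. Median-ratio scaling turned the medians in Tyr-NrasQ61K against WT to 0.0061 for S phase and 0.0434 for mitosis, and gave S phase medians of -0.20 in MHCII-KO and -0.10 in both groups against WT. Without WT replicates 1 and 3, a setting chosen after the data were seen in which 1 WT library is assumed to vary like the other groups, the S phase and mitosis medians were 0.142 and 0.275 in Tyr-NrasQ61K, -0.0896 and -0.04 in MHCII-KO, and 0.0459 and 0.138 in both groups against WT, and Cdk1 turned to 0.204 in Tyr-NrasQ61K and 0.0186 in both groups. With each library left out in turn, the median in Tyr-NrasQ61K against WT ran from -0.44 (without WT replicate 2) to -0.11 for S phase. For mitosis it ran from -0.235 to 0.0548, and was above 0 without WT replicate 1, WT replicate 3 or Tyr-NrasQ61K replicate 1. The S phase median of both groups against WT ran from -0.56 (without WT replicate 2) to -0.18. The cause of these shifts was not tested.

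Deviations from group means correlated at -0.04 to 0.33 between same-numbered libraries and at -0.27 to 0.16 between libraries of different number. The value of 0.33 was that of replicate 2 of Tyr-NrasQ61K with replicate 2 of MHCII-KO. WT replicates 1 and 2 correlated best with their own number in both transgenic groups. WT replicate 3 did so in neither, and the numbers were not taken as pairs. A replicate block gave 2 called S phase members in both groups against WT, where 16.1% of all genes passed, and changed no other count of members. Of the values of single named genes, 434 kept their direction and their side of the threshold, 18 passed it (17 with the weights and 1 with the replicate block) and 2 turned direction, both of Cdk1 as given above. FPKM without reads give no counting error, so the precision of low members such as Cdc6 is unknown.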
